A study of Mus musculus with 4 samples.

Results

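C-type lectin and Cd209 genes were followed in bone marrow cells of C57BL/6N mice during an acute endotoxin response. LPS mice had received 1 intraperitoneal injection of 50 µg lipopolysaccharide, a glycolipid of the bacterial outer membrane, made up in equal parts from E. coli K12 and S. minnesota, and PBS mice received the saline vehicle phosphate-buffered saline. Marrow was taken 8 h after either injection, and total RNA of unsorted cells was hybridised to Affymetrix GeneChip Mouse Gene ST arrays. LPS replicates 1 and 2 and PBS replicates 1 and 3 gave 4 arrays, 1 per sample. The members were all genes whose only annotated symbol begins with Clec and a digit or with Cd209, each read from its brightest probe set. This gave 40 of the 19938 genes measured, of which 39 had a single probe set. Of the 41 mouse genes in RefSeq (GRCm38.p6) with such a symbol, Clec2f was not analysed here.

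C-type lectins are receptors and secreted proteins built around a shared fold that in many members binds sugars with the help of calcium. On myeloid cells they recognise fungal, bacterial and self glycans or signs of cell death. Some, such as Dectin-1, Dectin-2 and Mincle, signal through tyrosine-based activation motifs and the kinase Syk to the adaptor Card9, while others carry inhibitory motifs that recruit phosphatases. The Cd209 genes are the mouse relatives of human DC-SIGN, a receptor for mannose-rich and fucosylated glycans. Members of the Clec2 group are surface ligands for NKR-P1 receptors of natural killer cells, and a few members act on endothelium, platelets or the extracellular matrix.

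All values are log2 expression values from the authors' RMA normalization, and a difference is LPS minus PBS on that scale. The median over genes was 8.02 and 8.01 on the LPS arrays, and 8.01 and 8.03 on the PBS arrays. Across genes, the LPS arrays correlated at r = 0.997 and the PBS arrays at r = 0.995, against 0.988 to 0.990 between groups. Markers of the main marrow lineages were bright on all arrays, with mean log2 values of 12.10 to 12.54 for 18 neutrophil genes, 11.57 to 11.88 for 10 erythroid genes and 9.97 to 10.41 for 12 B-lineage genes. The labels do not say whether the replicates were separate mice, so p-values measure the spread between these samples, which may be technical.

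After LPS, 6 of the 40 members fell and 2 rose. Cd209a, Clec7a (Dectin-1), Cd209d, Clec14a, Clec4d and Clec2i were lower, and Clec4e (Mincle) and Clec4a1 were higher. A gene passed at a limma adjusted p under 0.05, adjusted over all 19938 genes. In all, 20% of the members passed, against 3.66% of all genes. Lower members made up 15%, against 1.27% of all genes, and higher members 5.0%, against 2.39%. The median difference was -0.12 over the members and -0.01 over all genes. The groups did not overlap in 23 members (57.5%), against 44.9% of all genes. LPS was the lower group in 16 of these and the higher in 7, against 4885 and 4067 of all 19938 genes. The members were chosen with results of these data known, so the shares describe the family and are not a test of it. With 2 arrays a group, the smallest two-sided p of an exact permutation test is 0.333, so each call rests on the variances that limma shares between genes.

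**Figure D1:**
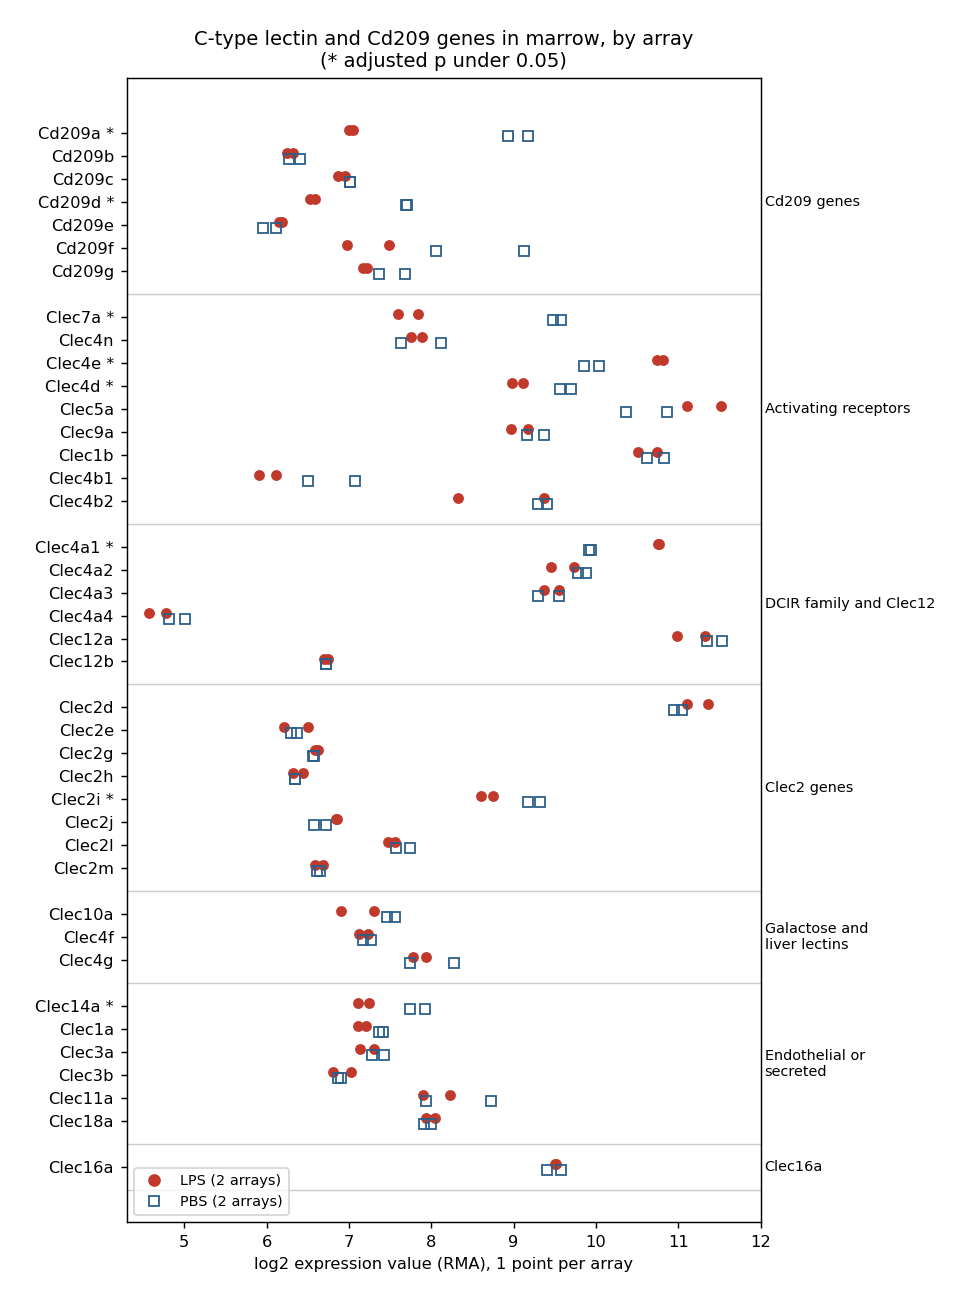
Log2 expression value (horizontal axis) of each of the 40 members on the 2 LPS arrays (filled red circles) and the 2 PBS arrays (open blue squares), grouped by role, with an asterisk on members that passed. Levels of different genes come from different probes and are not comparable. In Cd209a, Clec7a and Cd209d both LPS arrays lie more than 1 log2 unit left of both PBS arrays, and in Clec4a1 and Clec4e they lie to the right.

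Among the Cd209 genes, 2 of 7 fell and 0 rose, with a median difference of -0.33. Cd209a, the DC-SIGN relative found on dendritic cells and some monocyte-derived cells, had log2 values of 7.01 and 7.05 in LPS marrow, against 8.93 and 9.17 in PBS marrow. Both LPS arrays thus lay far below both PBS arrays. The difference was -2.02 (SE 0.106, 95% interval -2.27 to -1.78, limma adjusted p = 5.32e-05), which made Cd209a 4.07-fold lower after LPS and the member with the largest change.

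Cd209d, also named SIGNR3, a receptor for mannosylated glycans of fungi and mycobacteria, had 6.53 and 6.59 in LPS marrow, against 7.71 and 7.69 in PBS marrow. The arrays of each group agreed within 0.06. The difference was -1.14 (SE 0.0870, 95% interval -1.34 to -0.94, limma adjusted p = 0.000323). Both LPS values lay below the lower quartile of genes on their arrays (6.66 and 6.72). No background measurement entered the comparison, which leaves the size of the 2.20-fold difference uncertain.

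Cd209f had 7.48 and 6.97 in LPS marrow, against 8.06 and 9.13 in PBS marrow. The groups did not overlap, but the PBS arrays were 1.07 apart, and the difference of -1.37 (95% interval -2.11 to -0.63) did not pass (limma adjusted p = 0.0675). It passed without PBS replicate 1 (-1.91, adjusted p = 6.17e-05), without PBS replicate 3 (-0.83, adjusted p = 0.02) and without LPS replicate 1 (-1.62, adjusted p = 0.00875). A fit without 1 array leaves its group with a single array and takes the gene's own spread from the other group alone, so leaving out a PBS array removes the gap between the PBS arrays of Cd209f by construction. The same holds wherever a value without 1 array is given. With each array centred on its median Cd209f also passed, at an adjusted p of 0.0463.

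Cd209g lay at 7.17 and 7.22 in LPS marrow and at 7.36 and 7.67 in PBS marrow, a difference of -0.33 that did not pass (limma adjusted p = 0.227). It passed without PBS replicate 1 (-0.48, adjusted p = 0.0397). The other members of the group had smaller differences. They were -0.10 for Cd209c, -0.06 for Cd209b, the SIGNR1 receptor of marginal zone macrophages in the spleen, and 0.14 for Cd209e, with 95% intervals that reached no further from 0 than -0.31 and 0.36. The level of Cd209b and Cd209e averaged below the lower quartile of all genes (6.69).

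The activating receptors moved in both directions, with 1 of 9 higher, 2 lower and a median of -0.19. Clec7a encodes Dectin-1, the receptor for fungal beta-glucan. Its log2 value was 7.83 and 7.60 in LPS marrow, against 9.58 and 9.48 in PBS marrow. No other activating receptor changed as much. The difference was -1.81 (SE 0.108, 95% interval -2.06 to -1.56, limma adjusted p = 8.94e-05), or 3.51-fold lower after LPS.

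Clec4e and Clec4d are direct neighbours on chromosome 6, with 0 annotated genes between them, and changed in opposite directions. Clec4e encodes Mincle, a receptor for mycobacterial glycolipids and for a protein of dead cells. It had 10.75 and 10.82 in LPS marrow, against 9.85 and 10.04 in PBS marrow. The difference was 0.84 (SE 0.100, 95% interval 0.60 to 1.07, limma adjusted p = 0.00364), a 1.79-fold rise. Clec4d encodes MCL, which forms a complex with Mincle and binds the same class of glycolipid. It had 9.12 and 8.98 in LPS marrow, against 9.69 and 9.56 in PBS marrow. The difference was -0.58 (SE 0.0981, 95% interval -0.81 to -0.35, limma adjusted p = 0.0198), or 1.49-fold lower. Clec4d lost its call when LPS replicate 2 was left out (-0.51, adjusted p = 0.0892) and when every probe set entered the fit (adjusted p = 0.0979), and Clec4e passed in both. The intervals of the 2 genes lie on opposite sides of 0.

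The upstream sequences of this opposed pair and of the 2 members that fell most are shown because they hold the promoter-proximal DNA of the largest and the opposed changes. Each is the 250 bases before the annotated start in RefSeq (GRCm38.p6), written 5′ to 3′ in the direction of the gene, with motif matches in capitals.

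Clec4e, chr6:123289872-123290121, minus strand: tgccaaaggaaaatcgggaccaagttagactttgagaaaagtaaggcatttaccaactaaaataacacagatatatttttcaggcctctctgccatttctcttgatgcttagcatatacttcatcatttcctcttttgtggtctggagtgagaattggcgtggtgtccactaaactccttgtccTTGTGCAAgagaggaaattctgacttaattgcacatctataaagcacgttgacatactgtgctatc

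Clec4d, chr6:123261857-123262106, plus strand: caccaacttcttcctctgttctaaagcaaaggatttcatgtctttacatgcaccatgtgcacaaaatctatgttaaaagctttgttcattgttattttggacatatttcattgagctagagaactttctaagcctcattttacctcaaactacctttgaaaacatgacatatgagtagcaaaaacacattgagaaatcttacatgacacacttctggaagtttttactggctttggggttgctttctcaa

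Cd209a, chr8:3748985-3749234, minus strand: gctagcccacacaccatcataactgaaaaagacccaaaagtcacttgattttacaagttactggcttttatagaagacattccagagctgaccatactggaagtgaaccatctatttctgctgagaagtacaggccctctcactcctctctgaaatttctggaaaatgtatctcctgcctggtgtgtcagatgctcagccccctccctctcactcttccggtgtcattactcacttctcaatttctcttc

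Clec7a, chr6:129472780-129473029, minus strand: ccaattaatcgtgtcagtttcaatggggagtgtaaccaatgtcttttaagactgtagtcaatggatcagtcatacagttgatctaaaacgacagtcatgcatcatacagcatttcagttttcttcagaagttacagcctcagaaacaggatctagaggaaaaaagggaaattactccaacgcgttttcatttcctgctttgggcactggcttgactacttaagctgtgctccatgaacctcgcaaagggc

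Upstream windows of this length were found for 33 of the 40 members and were searched on both strands for 6 motifs. The Clec4e window held 1 match to the C/EBP motif TTGCNNAA. This match reads TTGTGCAA on the strand printed and fits the motif when read on the opposite strand. It begins 66 bases before the start. This motif occurred in 5 of the 33 member windows, the others being those of Cd209b, Clec11a, Clec12a and Clec16a, and in 9.56% of 32851 windows of all genes. Among the windows of the 8 changed members, 1 held any of the 6 motifs. The share of all windows with any of the 6 was not computed, so this count cannot be judged against it. The interferon response element GAAANNGAA occurred in 5 member windows (7.13% of all windows), the AP-1 motif TGANTCA in 7 (6.75%), the GAS element TTCNNNGAA in 1 (7.02%), the kappaB consensus in 1 (7.25%) and the PU.1 motif GAGGAAGT in 0 (2.44%). No match overlapped another in the windows shown. A match describes letters in the window and is not a measured binding site.

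Of the remaining activating receptors, Clec5a, a receptor that signals through the adaptor Dap12, had 11.52 and 11.10 in LPS marrow, against 10.36 and 10.87 in PBS marrow. The groups did not overlap, but the difference of 0.69 (95% interval 0.25 to 1.13) did not pass (limma adjusted p = 0.113). It passed without LPS replicate 2 (0.90, adjusted p = 0.0204) and without PBS replicate 3 (0.95, adjusted p = 0.00455). Clec4b1, a receptor of the DCAR type that pairs with the Fc receptor gamma chain, had 6.12 and 5.91 in LPS marrow, against 6.5 and 7.07 in PBS marrow. Clec4b1 averaged below the lower quartile of all genes (6.69), and its difference of -0.77 did not pass (limma adjusted p = 0.0669). It passed without PBS replicate 1 (-1.06, adjusted p = 0.000468), without LPS replicate 1 (-0.87, adjusted p = 0.0303) and with each array centred (adjusted p = 0.0479).

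Clec4b2, the second DCAR gene, had 9.37 and 8.33 in LPS marrow, against 9.41 and 9.29 in PBS marrow. LPS replicate 2 alone was low, and the groups overlapped. The difference of -0.50 (limma adjusted p = 0.459) was 0.02 without LPS replicate 2, and -1.03 without LPS replicate 1 (adjusted p = 0.00082). Smaller differences, none of which passed, were those of Clec4n (Dectin-2, the receptor for fungal mannans) at -0.06, Clec1b (the podoplanin receptor of platelets) at -0.10 and Clec9a (a receptor of dendritic cells for actin exposed by dead cells) at -0.19. The 95% interval of Clec4n ran from -0.42 to 0.31.

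**Figure D2:**
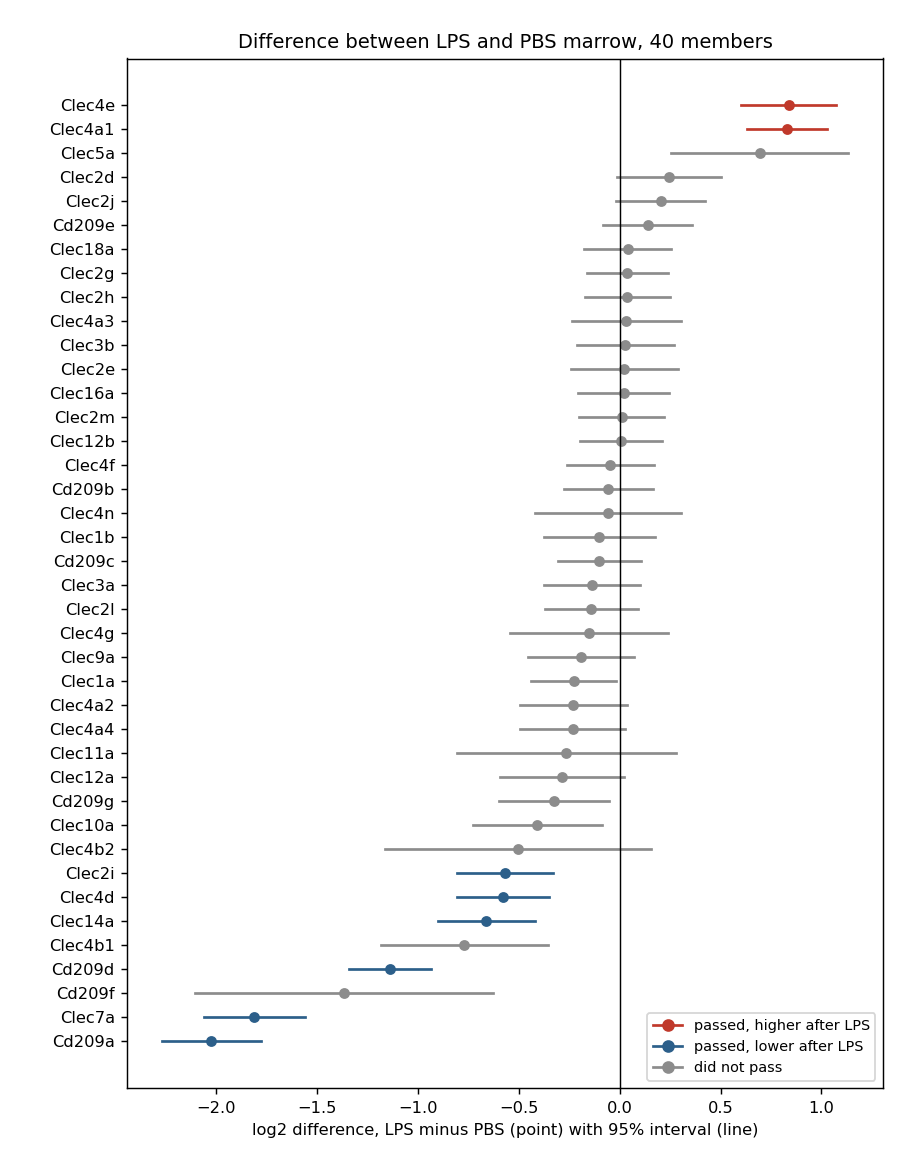
Log2 difference, LPS minus PBS, of each member (points) with its 95% interval from limma (lines), from the largest rise at the top to the largest fall at the bottom. Red and blue mark members that passed as higher or lower; Cd209f, Clec4b1 and Clec5a have large differences but wide intervals.

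In the group of Clec4a (DCIR) and Clec12 receptors, 1 of 6 rose and 0 fell, with a median of -0.11. Clec4a1, also named Dcir4, had 10.77 and 10.75 in LPS marrow, against 9.92 and 9.94 in PBS marrow. The arrays of each group agreed within 0.02. The difference was 0.83 (SE 0.0860, 95% interval 0.63 to 1.03, limma adjusted p = 0.00173), a 1.78-fold rise. Its closest relatives did not pass. Clec4a2, the inhibitory receptor DCIR, differed by -0.23, Clec4a4, the inhibitory receptor DCIR2, by -0.23 and Clec4a3 by 0.03, with limma adjusted p-values of 0.374 to 0.945. Clec12a, an inhibitory receptor of myeloid cells that senses dead cells, had 11.33 and 10.99 in LPS marrow, against 11.35 and 11.54 in PBS marrow (difference -0.29, limma adjusted p = 0.352). Clec12b differed by 0.01. The level of Clec4a4 averaged below the lower quartile of all genes (6.69).

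Among the 8 Clec2 genes measured, 1 fell and 0 rose, with a median of 0.03. Clec2i, also named Clr-g and known as a ligand of the natural killer receptor NKR-P1F, had 8.76 and 8.60 in LPS marrow, against 9.17 and 9.32 in PBS marrow. The difference was -0.57 (SE 0.102, 95% interval -0.81 to -0.33, limma adjusted p = 0.0255), or 1.48-fold lower. The call was lost when LPS replicate 2 was left out (-0.49, adjusted p = 0.111) and when every probe set entered the fit (adjusted p = 0.117). Clec2d (Clr-b), which engages the inhibitory receptor NKR-P1B, pointed the other way, with 11.11 and 11.37 in LPS marrow against 10.95 and 11.04 in PBS marrow, but did not pass (difference 0.24, limma adjusted p = 0.343). The other 6 genes were Clec2e, Clec2g, Clec2h, Clec2j, a pseudogene, Clec2l and Clec2m. With Clec2d, the 7 genes that did not pass had differences between -0.14 and 0.24. The levels of Clec2e, Clec2g, Clec2h and Clec2m averaged below the lower quartile of all genes (6.69).

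Of the 3 galactose-binding and liver lectins, 0 passed by limma after adjustment and 1 had an unadjusted p under 0.05, against 15.8% of all genes. Clec10a, the macrophage galactose lectin, had 7.30 and 6.90 in LPS marrow, against 7.56 and 7.46 in PBS marrow. Both LPS arrays lay lower, but the difference of -0.41 did not pass (limma adjusted p = 0.195). It passed without LPS replicate 1 (-0.61, adjusted p = 0.0288). Clec4f, the Kupffer cell receptor, differed by -0.05 and Clec4g, the sinusoidal lectin LSECtin, by -0.15.

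Of 6 endothelial, stromal or secreted members, 1 fell and 0 rose, with a median of -0.18. Clec14a, an endothelial receptor that binds the matrix protein multimerin-2, had 7.24 and 7.11 in LPS marrow, against 7.75 and 7.92 in PBS marrow. The difference was -0.66 (SE 0.103, 95% interval -0.90 to -0.42, limma adjusted p = 0.0137), or 1.58-fold lower. It did not pass with every probe set in the fit (adjusted p = 0.0816). Among 13 other endothelial markers, Stab2 (-1.26), Tek (-0.89) and Flt4 (-0.57) fell and 0 rose, around a median of 0.04. The mean log2 value of these markers was 8.93 on both LPS arrays, and 9.09 and 9.0 on the PBS arrays. Their part in the fall of Clec14a was not tested. In RNA from whole marrow, fewer cells of a type and less RNA per cell cannot be told apart.

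Clec1a, another endothelial receptor, had 7.11 and 7.21 in LPS marrow, against 7.36 and 7.41 in PBS marrow (difference -0.23, limma adjusted p = 0.271). Clec11a, a secreted growth factor of bone-forming stroma, had 8.23 and 7.90 in LPS marrow, against 7.94 and 8.72 in PBS marrow. The groups overlapped, and the difference of -0.27 (limma adjusted p = 0.678) was 0.13 without PBS replicate 3 and -0.66 without PBS replicate 1 (adjusted p = 0.0249). Clec3a, Clec3b (the plasminogen-binding protein tetranectin) and Clec18a differed by -0.14, 0.03 and 0.04. Clec16a, an intracellular protein of endosomes and autophagy that shares the name but is not a sugar receptor, differed by 0.02 (95% interval -0.20 to 0.24).

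Arrays of 1 group differed by more than 0.5 log2 in 6 members (15%), against 2.12% of all genes. These were Cd209f, Clec4b2, Clec11a, Clec4b1, Clec4g and Clec5a, and 0 of them passed. Of all 422 genes with such a gap, 19 passed, and a gap raises the variance used for the call. In 5 of the 6, PBS replicate 1 was lower than PBS replicate 3 by 0.51 to 1.07. Markers of stroma, osteoblasts and adipocytes differed between these arrays in the same direction, with 1 gene lower after LPS (Lepr, -0.59) and a mean log2 value over 13 genes of 10.21 and 10.10 on the LPS arrays, and 9.75 and 10.49 in PBS replicates 1 and 3. In LPS replicate 2, where Clec4b2 was low, the mean of 12 eosinophil, basophil and mast cell markers was 9.12, against 9.42 in LPS replicate 1 and 9.44 and 9.63 in PBS marrow. Of these markers, Ccr3 (-1.59) fell and 0 rose. LPS replicate 2 also had the lowest mean of the 4 arrays for resident macrophage, neutrophil, T-cell, natural killer and endothelial markers, but not for the remaining marker lists. The part of these cells in the gaps was not tested.

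**Figure D3:**
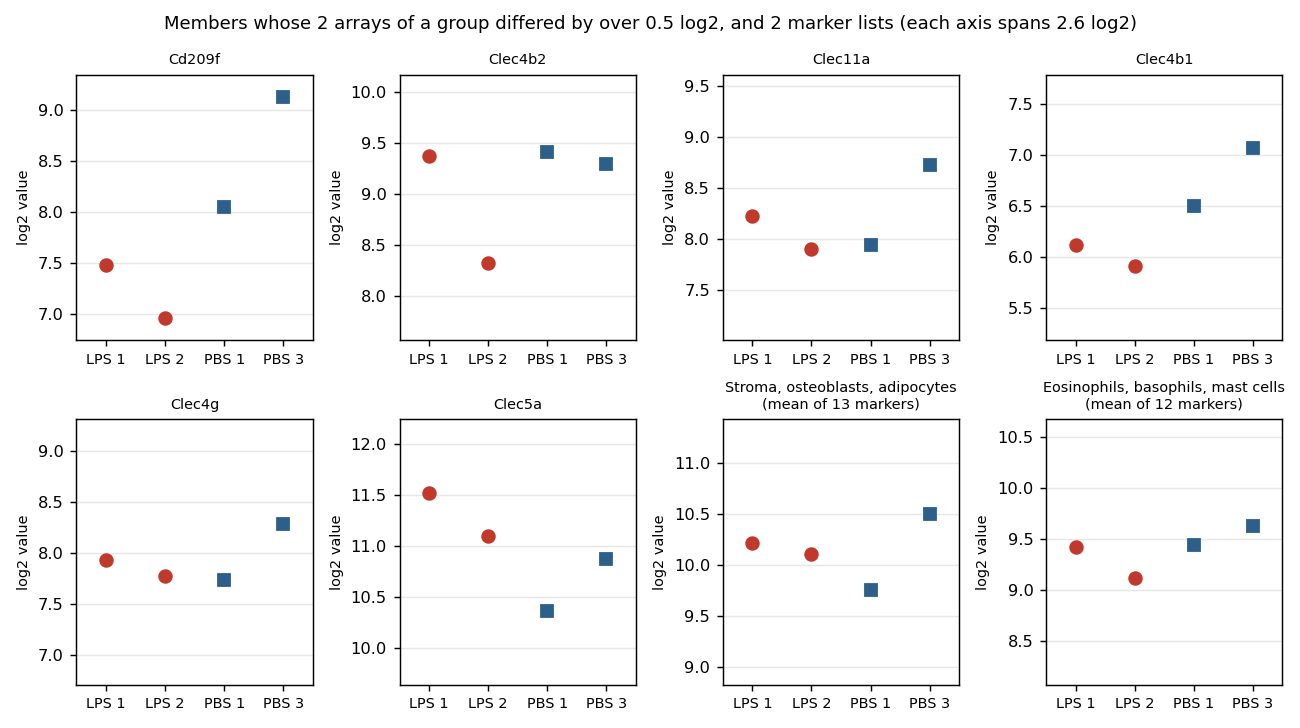
Log2 values on each array (LPS 1 and 2 as red circles, PBS 1 and 3 as blue squares) for the 6 members with a gap of over 0.5 log2 between arrays of 1 group, and the mean log2 value of 2 marker lists. Every vertical axis spans 2.6 log2; Clec4b2 is low in LPS 2, and Cd209f, Clec11a, Clec4b1, Clec4g and Clec5a are higher in PBS 3 than in PBS 1.

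Most members lie in gene clusters. Of the 40, 25 are on chromosome 6 and 10 on chromosome 8. In the Dectin-2 cluster of chromosome 6, the genes that rose, Clec4a1 and Clec4e, are the first and the last of 9 lectin genes, and the 1 that fell, Clec4d, lies beside Clec4e. Farther along chromosome 6, 13 measured genes run from Clec2j to Clec7a, of which Clec2i and Clec7a fell and 0 rose. Clec1a, the lectin gene beside Clec7a, had a difference of -0.23. In the Cd209 cluster of chromosome 8, Cd209a and Cd209d fell, while Cd209e, which lies between them, differed by 0.14. Probe sets of close relatives can bind each other's RNA, and probe sequences were not used here, so differences between neighbours are those of the probe sets named for them.

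**Figure D4:**
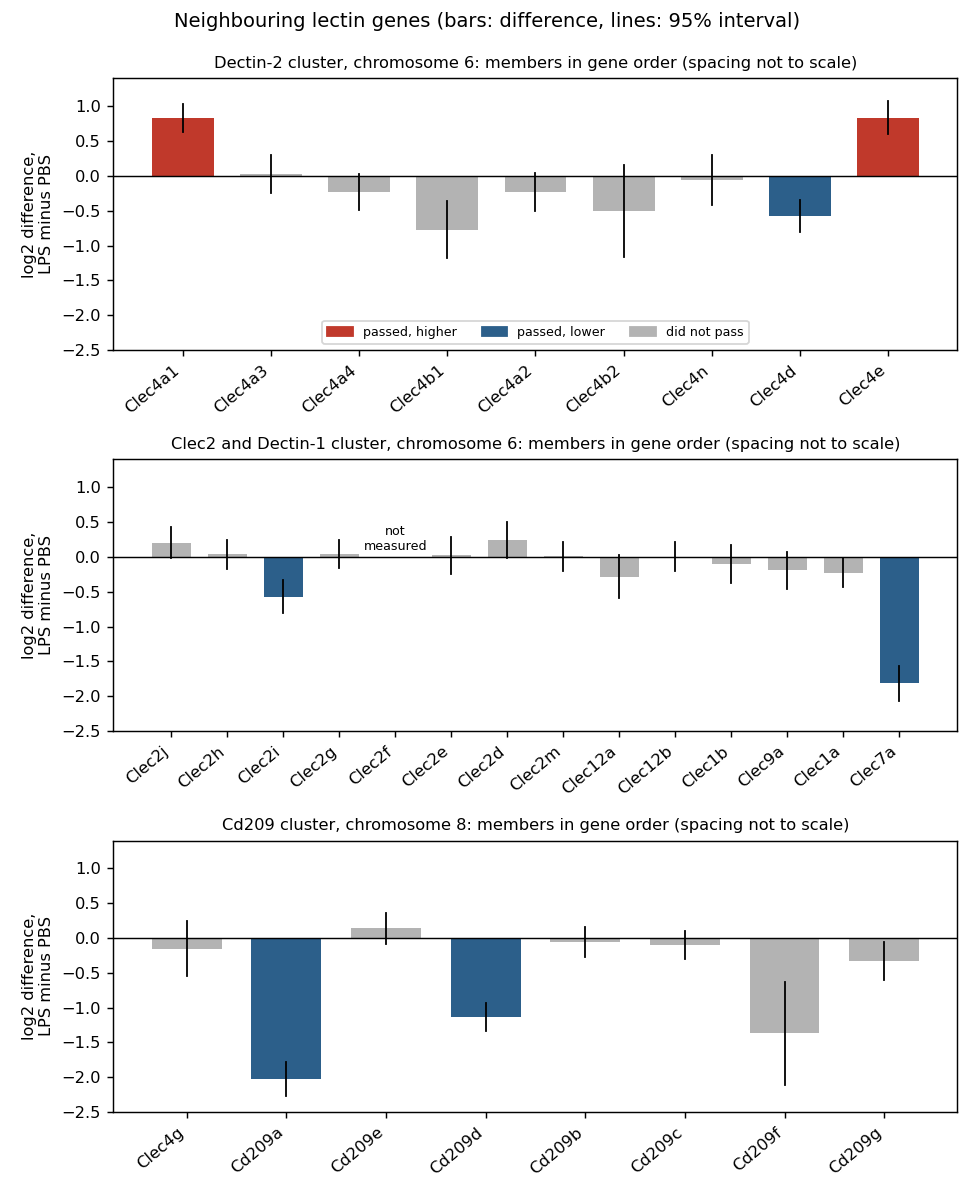
Log2 difference, LPS minus PBS (bars from 0), with 95% intervals (lines), of members in their order along 3 clusters on chromosomes 6 and 8; spacing is not to scale and Clec2f was not measured. Members that passed stand beside members that did not, and Clec4d and Clec4e point in opposite directions.

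Other genes with a C-type lectin domain changed in both directions as well. Of 29 measured, 2 rose and 4 fell, around a median of -0.08. Vcan, the matrix proteoglycan versican, rose by 2.26 (SE 0.162, limma adjusted p = 0.00024) and Cd69, an early activation marker of leukocytes, by 1.05. The 4 that fell were Mrc1 (-1.72), the macrophage mannose receptor, Fcer2a (-1.61), the low-affinity IgE receptor, Thbd (-1.21), the thrombin receptor thrombomodulin, and Sele (-1.07), the endothelial E-selectin. Mrc1 had 8.83 and 8.76 in LPS marrow, against 10.47 and 10.57 in PBS marrow.

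Genes of the signalling machinery downstream of the receptors were measured as well; a list of this length holds few passing genes at the 3.66% of all genes. Of 18 genes for adaptors with activation motifs and Syk-Card9 signalling, 0 passed by limma after adjustment and 4 had an unadjusted p under 0.05, against 15.8% of all genes, with differences between -0.36 and 0.15 and a median of -0.05. Fcer1g, which encodes the gamma chain used by Mincle and Dectin-2, differed by 0.10, and Tyrobp, which encodes Dap12, by -0.31 (limma adjusted p = 0.15). Of 13 inhibitory phosphatases and adaptors, 0 passed by limma and 3 had an unadjusted p under 0.05, with a median of -0.01. Its brightest probe sets were those of Sirpa (0.09) and Pirb (0.23). Among 13 ligands and partners of the members, Lgals9, which encodes a galectin that Dectin-1 binds, rose by 0.65 (limma adjusted p = 0.00966), and 0 fell. The Clec2 receptor gene Klrb1f differed by -0.44 and did not pass. Of 13 genes known to be induced through Dectin receptors, 4 rose and 0 fell, namely Il6 (1.46), Tnf (1.44), Cxcl2 (1.19) and Ptgs2 (0.59). LPS receptors induce these genes too. The level of Il6 averaged below the lower quartile of all genes (6.69), and both PBS values of Cxcl2 and Ptgs2 lay below it.

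Marker genes of macrophages, monocytes and neutrophils also changed. Of 18 resident macrophage markers, 5 fell and 2 rose, around a median of -0.21. Cd163 (-2.41), Slc40a1 (-1.89) and Mrc1 fell most, while Spic (1.49) and Adgre1 (0.56), which encodes F4/80, rose. Both LPS values of Cd163 (6.42 and 6.57) lay below the lower quartile of genes on their arrays. The mean log2 value of this list was 9.78 and 9.68 in LPS marrow, against 10.09 and 10.13 in PBS marrow. Of 13 monocyte markers, Fcgr1 (1.57), Ms4a4c (1.08) and Ms4a6c (0.49) rose and 0 fell, around a median of -0.09. LPS was the higher group without overlap in 4 of the monocyte markers and the lower group in 4. The mean of this list was 10.06 and 9.95 in LPS marrow and 9.90 and 9.87 in PBS marrow. Of 18 markers of neutrophils and their precursors, Ly6g (-1.14) and Retnlg (-0.76) fell and 0 rose, around a median of -0.22. Both LPS arrays lay below both PBS arrays in 10 of these and above in 0, with a mean of 12.28 and 12.10 in LPS marrow and 12.54 and 12.39 in PBS marrow. Of 14 markers of conventional dendritic cells, Fscn1 (1.24) rose and 0 fell, around a median of -0.10. In 6 of these both LPS arrays lay below both PBS arrays, and in 1 above. Their mean was 8.88 and 8.99 in LPS marrow and 8.96 and 9.01 in PBS marrow. Beside these counts without overlap, the share over all 19938 genes was 44.9%, with LPS lower in 4885 and higher in 4067. RMA values have no zero, so none of these markers could be read as absent, and their part in the changes of Cd209a, Clec7a, Cd209d, Clec4e and Clec4a1 was not tested.

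In each of the fits without 1 array, 6 of the 8 members, Cd209a, Clec7a, Cd209d, Clec14a, Clec4a1 and Clec4e, were past the threshold. These fits set 1 array against 2 with 1 residual degree of freedom, and the lone array is assumed to vary like the other group. Their prior degrees of freedom were 9.92 to 10.92, against 5.59 with all 4 arrays, so they lean more on variances shared between genes. Passing in them is therefore not a stricter result. The fits show how far the differences move and are not a test of stability. Over these fits, Cd209a ranged from -2.14 to -1.91, Clec7a from -1.93 to -1.70, Cd209d from -1.17 to -1.11, Clec14a from -0.75 to -0.57, Clec4a1 from 0.82 to 0.84 and Clec4e from 0.74 to 0.93. Members that passed in such a fit but not with all 4 arrays were Cd209f, Clec4b1, Clec4b2, Clec5a, Clec11a, Cd209g and Clec10a. All but Cd209g and Clec10a have a gap of over 0.5 log2 within a group, which goes when 1 of its arrays is left out. However, Cd209f, Clec4b1 and Clec5a also passed in a fit that kept both arrays of that gap. The largest gaps of Cd209g and Clec10a were smaller, at 0.31 and 0.41.

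**Figure D5:**
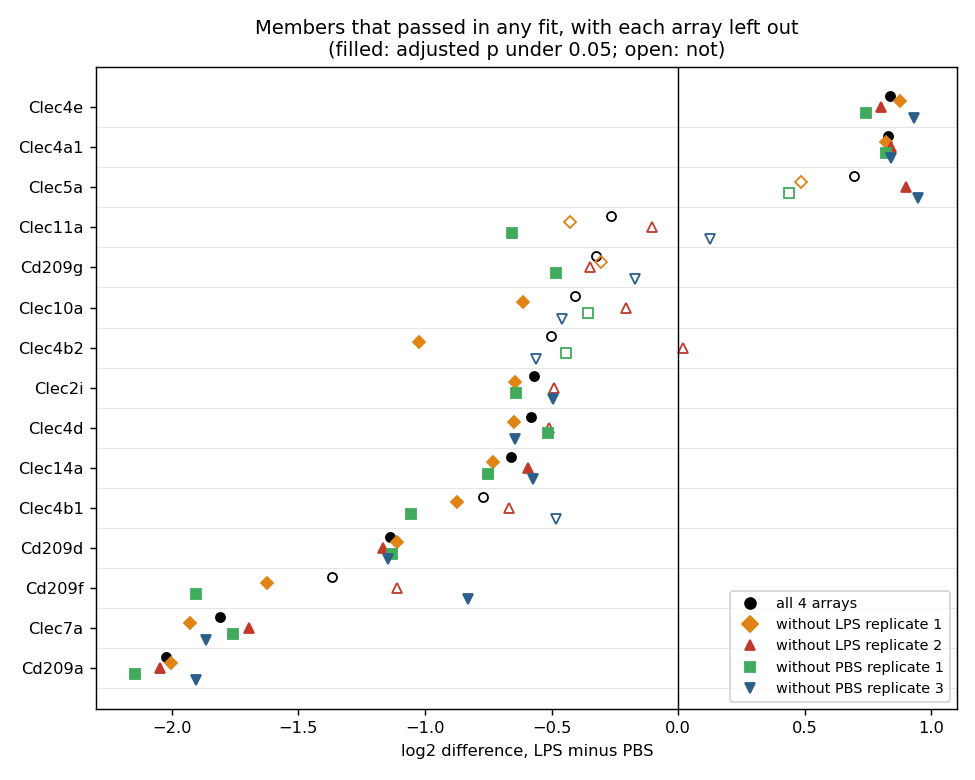
Log2 difference, LPS minus PBS, of the 15 members that passed with all 4 arrays or with any 1 array left out; marker shape and colour give the array left out, and filled markers passed. Cd209a, Clec7a, Cd209d, Clec14a, Clec4a1 and Clec4e are filled in all 5 fits, while Cd209f spreads from -1.91 to -0.83 and Clec4b2 from -1.03 to 0.02.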

How the data were processed

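RNA of 4 bone marrow samples was measured on 1 array each. The deposited log2 values are per probe set and were made by the authors with RMA, per the submitters' processing notes; its version is not given in the sources used here. Of 35556 probe sets, 21789 had 1 gene symbol in the platform annotation, 1621 had several and were not used, and 12146 were unnamed here. Each of 19938 genes was read from its brightest probe set. Dim genes were kept; 32 members had a mean above the lower quartile of genes and 8 did not, of which 0 passed.

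LPS and PBS were compared in R 4.3.3 with the eBayes moderated test of limma 3.58.1 (two-sided, no covariate, 5.59 prior and 2 residual degrees of freedom), with Benjamini-Hochberg adjustment over all genes. Members, roles and gene lists were chosen with earlier results of these data known; every member is named, and of each other list described gene by gene, up to 3 passing genes each way with the largest change, or else its 2 brightest genes; the B-lineage and erythroid lists are given by their mean level only. Sele, Ptgs2, Klrb1f and Mgl2 fall outside that rule and were named after their values were seen. With 2 arrays a group, the number of arrays limits the precision. Alternatives were an intensity trend with robust eBayes, no moderation, every probe set in the fit, the mean of a gene's probe sets, a low-value filter, median centring, an adjusted p under 0.01 and each array left out. Sequences and gene order are from RefSeq (GRCm38.p6). Figures were drawn with matplotlib 3.10.9.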

Additional observations from a re-analysis of the deposited data

How the results depend on the processing

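No paired analysis was possible because the labels do not pair any LPS sample with a PBS sample. The numbers of higher and lower members, 2 and 6 in the report, were 0 and 0 with no moderation of the variances, where all genes also gave 0 and 0; at an unadjusted p under 0.05 this model (lmFit without eBayes) had 8 members and 2185 genes. At an adjusted p under 0.01 there were 3 lower members, with 286 genes higher and 58 lower in all. With every probe set in the fit there were 3 lower members and 63 lower probe sets. Leaving out 1 array gave 2 to 3 higher and 4 to 10 lower members, and 385 to 696 higher and 127 to 423 lower genes. The lower members numbered 10 without LPS replicate 1 and 10 without PBS replicate 1. Lower genes numbered 127 without LPS replicate 2, 382 without PBS replicate 1 and 423 without PBS replicate 3. Under the intensity trend, the mean of probe sets and the low-value filter the members' counts stayed at 2 and 6, and with centring they were 2 and 8. The causes were not tested. With 2 arrays a group and no background level per probe set, small differences and those of dim probe sets could not be resolved.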

Other observations

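Genes of alternative activation, a macrophage state in which several lectin receptors are raised, changed in both directions. Of 13 measured, Tgm2 (1.11), a transglutaminase, Il4ra (0.62), a subunit of the interleukin-4 receptor, and the chemokine gene Ccl22 (0.52) rose after LPS, and Mrc1 (-1.72) fell, around a median of 0.19. Mgl2, a close relative of Clec10a, had 7.83 and 7.63 in LPS marrow, against 7.93 and 8.14 in PBS marrow, and did not pass (difference -0.31, limma adjusted p = 0.232).

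Clec4g had a second, dimmer probe set, with log2 values of 6.14 and 6.33 in LPS marrow and 6.27 and 6.01 in PBS marrow. Its difference of 0.09 had the opposite sign to that of the brighter one (-0.15), and neither passed.

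Among natural killer markers, Prf1 (0.50), which encodes perforin, rose and Klrd1 (-0.89), which encodes the lectin-like receptor CD94, fell, out of 10. Plasmacytoid dendritic cell markers had 0 of 9 past the threshold by limma and 4 at an unadjusted p under 0.05, against 15.8% of all genes. Their brightest probe sets were those of Spib (-0.05) and Ly6d (-0.01). Megakaryocyte and platelet markers, whose cells carry Clec1b, had 0 of 8 past the threshold and 0 at an unadjusted p under 0.05, with differences of -0.02 for Ppbp and 0.04 for Pf4.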
